A study of Danio rerio with 12 samples.

Results

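Genes of the major histocompatibility complex (MHC) and of the pathway that feeds peptides to it were followed in sorted zebrafish macrophages. The genes were every row of the count table whose symbol begins with mhc1 or mhc2, together with cd74a, cd74b, b2m, psmb8a, psmb9a, psmb12, psmb13a, tap1, tap2a and tapbp.1. This rule gave 44 gene IDs of 35117 in the table. They comprised 21 class I genes, 13 class II genes, b2m, 2 invariant chain genes, 4 immunoproteasome genes and 3 genes of peptide loading. The symbols psmb8a, psmb9a and tap1 stand in the gene name table as PSMB8, PSMB9 and TAP1. The genes were selected on measured genotype contrasts of these data, because mhc1lda had shown the largest rise in mutant cells and mhc2d4b a genotype difference that changed with stage. Genotype differences of these 44 genes and their change with stage are therefore described without a test. Stage differences within a genotype were tested for 11 of them, with mhc1lda counted among these. They are a description for mhc1lda, for mhc2d4b and for genes that passed the low-count filter through the 50 hpf libraries alone.

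MHC class I molecules present peptides from inside the cell to cytotoxic T cells, and need beta-2 microglobulin, encoded by b2m, to be stable. The peptides are cut by the proteasome, of which the immunoproteasome is a form with exchanged catalytic subunits that interferon-γ induces. TAP transporters carry the peptides into the endoplasmic reticulum, where tapasin, encoded by tapbp genes, helps to load them. Class II molecules are pairs of an alpha and a beta chain that present peptides from taken-up material on macrophages, dendritic cells and B cells, and the invariant chain, encoded by cd74a and cd74b, guides them to the endosome. In fish the class I genes fall into lineages named by a letter, of which U holds the classical genes. Zebrafish carry MHC haplotypes that differ in which class I, immunoproteasome and transporter genes they hold.

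RNA was sequenced from mpeg-GFP+ cells, which are mainly macrophages, sorted from whole zebrafish embryos. The csf1rDM embryos were csf1raj4e1/j4e1;csf1rbre01/re01 tg(mpeg-GFP), which are homozygous for mutations in csf1ra and csf1rb, the paralogous genes of a macrophage growth factor receptor, and the control embryos were wildtype tg(mpeg-GFP). Both were taken at 50 and at 28 h post-fertilisation (hpf), with 3 libraries in each of the 4 groups. A library was a pool of 70 embryos for csf1rDM at 50 hpf and of 35 embryos for the other groups, so p-values measure the spread between pools. All embryos carried the reporter, which is driven by the promoter of the macrophage gene mpeg1, and the methods describe a pigment blocker, PTU, in the medium of all larvae. The controls were wild-type fish with reporter transgenes, and the sources used here do not say that they were siblings of the mutants. Genotype and line background therefore cannot be told apart in any genotype difference below.

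Libraries held 8641139 to 20261650 counts, and the 44 genes took 0.0343 to 0.140% of them. Levels are given as CPM, counts scaled to library size with TMM factors, and a fold change as its log2. The receptor RNAs were present in every group, csf1rb at 153 to 214 CPM in csf1rDM and 257 to 441 CPM in control cells at 50 hpf, and at 61.4 to 97.8 CPM in csf1rDM and 135 to 161 CPM in control cells at 28 hpf. For csf1ra the values were 339 to 405 CPM in csf1rDM and 349.7 to 445 CPM in control cells at 50 hpf, and 239 to 301 CPM in csf1rDM and 214 to 235 CPM in control cells at 28 hpf. The summed level of 20 macrophage marker IDs was 23403 to 27331 CPM in csf1rDM and 18951 to 21329 CPM in control cells at 50 hpf, and 28965 to 30137 CPM in csf1rDM and 24728 to 25982 CPM in control cells at 28 hpf. The summed level of 10 keratinocyte marker IDs was 395 to 493 CPM in csf1rDM and 185 to 267 CPM in control cells at 50 hpf, and 668 to 1162 CPM in csf1rDM and 466 to 737 CPM in control cells at 28 hpf. That of 9 B and T cell marker IDs was 3.41 to 8.11 CPM in csf1rDM and 1.79 to 2.75 CPM in control cells at 50 hpf, and 1.28 to 1.89 CPM in csf1rDM and 1.43 to 2.14 CPM in control cells at 28 hpf. Neutrophil, endothelial and erythroid marker sums also varied between libraries, with 7 neutrophil IDs at 284 to 459 CPM in csf1rDM and 418 to 969 CPM in control cells at 28 hpf. The part of such cells in the results below was not tested. In sorted bulk RNA, fewer cells of a type and less RNA per cell cannot be told apart.

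A low-count filter left 19 of the 44 genes, among 16429 genes tested. These were 11 class I genes, 3 class II genes, both invariant chain genes, b2m, tapbp.1 and tap1. Of the others, 4 had no count in any library (mhc1lla, mhc2d8.37a2, mhc2dcb and mhc2dga), and 21 had 2 to 41 counts over all 12 libraries, with a median of 7. Among class I genes, 5 of 8 Z lineage, 4 of 9 L lineage, 1 of 3 U lineage and 1 of 1 H lineage IDs were tested. Copies in these families can be nearly identical, so the split of reads between them is uncertain for every member, and the strand setting of the counting is not given in the sources used here.

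With stage, every tested gene that passed the thresholds in a genotype was higher at 50 hpf in that genotype. For 7 of the 19 genes (mhc1lca, mhc1zda, mhc1zca, mhc1uba, mhc2daa, cd74a and cd74b) fewer than 3 libraries of 28 hpf reached the filter's level of 0.674 CPM. They thus entered the fit through 50 hpf, which favours an upward stage difference without fixing it for each gene and genotype. Stage values of these 7 and of mhc2d4b are a description, a limit set after the data were seen. Those of mhc1lda are a description too, since it was selected on its rise in csf1rDM cells. In control cells they rest on 4 counts at 50 hpf and 7 at 28 hpf. It is still counted among the other 11 genes and passed the thresholds in neither genotype. Of the other 11, 3 passed the thresholds upward in csf1rDM cells (b2m, mhc1zba and mhc2dab) and 0 downward, where 8.24% of all tested genes passed, 4.7% upward and 3.54% downward. In control cells 4 passed upward (b2m, mhc1zba, mhc2dab and tapbp.1) and 0 downward, against 6.29% of all tested genes, 4.29% upward and 2% downward. The thresholds were an adjusted p under 0.01 by edgeR's quasi-likelihood test and a log2 fold change above 1 in size. At an unadjusted p under 0.05, 7 of the 11 stood in csf1rDM cells and 5 in control cells, against 38.5 and 34.9% of all tested genes. The stages did not overlap for 7 of the 11 in each genotype, against 36.8% in csf1rDM and 49.3% in control cells over all tested genes. In csf1rDM cells mhc1lda, a description, was counted among the 7 by p and among the 7 by overlap. In both genotypes these counts also held mhc1zea, which was lower at 50 hpf. The median log2 fold change of the 11 genes was 0.72 in csf1rDM and 1.02 in control cells, against 0.04 and 0.05 over all tested genes. The csf1rDM median is the value of mhc1lda itself, and so is a description too.

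The class I genes of the libraries were led in counts by mhc1zba, a Z lineage gene. Its share of class I CPM, which gene length also sets, was 65.3 to 68.3% in csf1rDM and 78.4 to 79.8% in control cells at 50 hpf. At 28 hpf it was 52.4 to 54.2% in csf1rDM and 50.9 to 55.2% in control cells. At 50 hpf mhc1zba stood at 405, 484 and 403 CPM in csf1rDM and 385, 388 and 371 CPM in control cells. At 28 hpf it stood at 187, 169 and 179 CPM in csf1rDM and 130, 129 and 112 CPM in control cells. Every 50 hpf library was above every 28 hpf library. The gene rose with stage by 1.27 ± 0.09 on the log2 scale in csf1rDM cells (SE, n = 3 pools a group, edgeR adjusted p = 5.73e-07) and by 1.63 ± 0.09 in control cells (edgeR adjusted p = 1.02e-07). The csf1rDM libraries lay above the control libraries at both stages, by a log2 fold change of 0.18 at 50 hpf and 0.53 at 28 hpf.

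The L lineage gene mhc1lda (ENSDARG00000023203) was detected almost only in csf1rDM cells. At 50 hpf it had 119, 129 and 99.3 CPM in csf1rDM libraries and 0.0625, 0.0957 and 0.0640 CPM in control libraries. At 28 hpf it had 74.9, 58.1 and 77.4 CPM in csf1rDM libraries and 0, 0.207 and 0.248 CPM in control libraries. The control values rest on 4 counts in all at 50 hpf and 7 at 28 hpf, against 4294 and 2564 counts in csf1rDM cells. The scaled ratio of csf1rDM to control was 1513 (95% exact interval 590 to 5554) at 50 hpf and 427 (207 to 1063) at 28 hpf, where the intervals cover counting error only. Within csf1rDM cells every 50 hpf library lay above every 28 hpf library, and the log2 stage difference was 0.72 ± 0.18 (SE), under the fold threshold. This value is a description, since the gene was selected on its rise in csf1rDM cells.

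Other class I genes ran the opposite way between the lines. The U lineage gene mhc1uba, of the classical lineage, had 1, 0 and 0 counts in csf1rDM and 29, 18 and 12 counts in control libraries at 50 hpf. At 28 hpf every csf1rDM library had 0 counts, and control libraries had 13, 3 and 0 counts. The ratio of csf1rDM to control at 50 hpf was 0.0239 (95% exact interval 0.000595 to 0.138). Here too the intervals cover counting error only and are no test, and mhc1uba passed the filter through control libraries alone. At 28 hpf the bound for mhc1uba, with 3 counts over the csf1rDM group as the floor, was 4.57-fold lower in csf1rDM. Such floor values are bounds and not estimates, and they take the sum of the other group as exact. The genotypes overlapped for mhc1uba at 28 hpf. The Z lineage gene mhc1zka, which was below the filter, had 0 counts in all 6 csf1rDM libraries. It had 10, 12 and 8 counts in control libraries at 50 hpf and 1, 4 and 6 counts at 28 hpf. Against the same floor the bound for mhc1zka was 7.10-fold lower in csf1rDM cells at 50 hpf and 3.14-fold lower at 28 hpf. The L lineage gene mhc1lga, also below the filter, had 2 counts in csf1rDM and 16 in control cells at 50 hpf, a ratio of 0.176 (0.0196 to 0.749).

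A smaller difference in the same direction was measured for mhc1zea, a Z lineage gene. At 50 hpf it had 23.3, 16.9 and 31.3 CPM in csf1rDM and 39.9, 41.0 and 42.9 CPM in control cells. The 28 hpf levels were 37.4, 37.8 and 35.2 CPM in csf1rDM and 64.2, 54.9 and 58.5 CPM in control cells. The csf1rDM libraries lay below the control libraries at both stages without overlap, with log2 fold changes of -0.79 ± 0.17 at 50 hpf and -0.69 ± 0.17 at 28 hpf (SE). Its log2 stage differences of -0.63 in csf1rDM (edgeR adjusted p = 0.0168) and -0.52 in control cells (edgeR adjusted p = 0.0416) did not pass the thresholds, and both were negative.

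**Figure D1:**
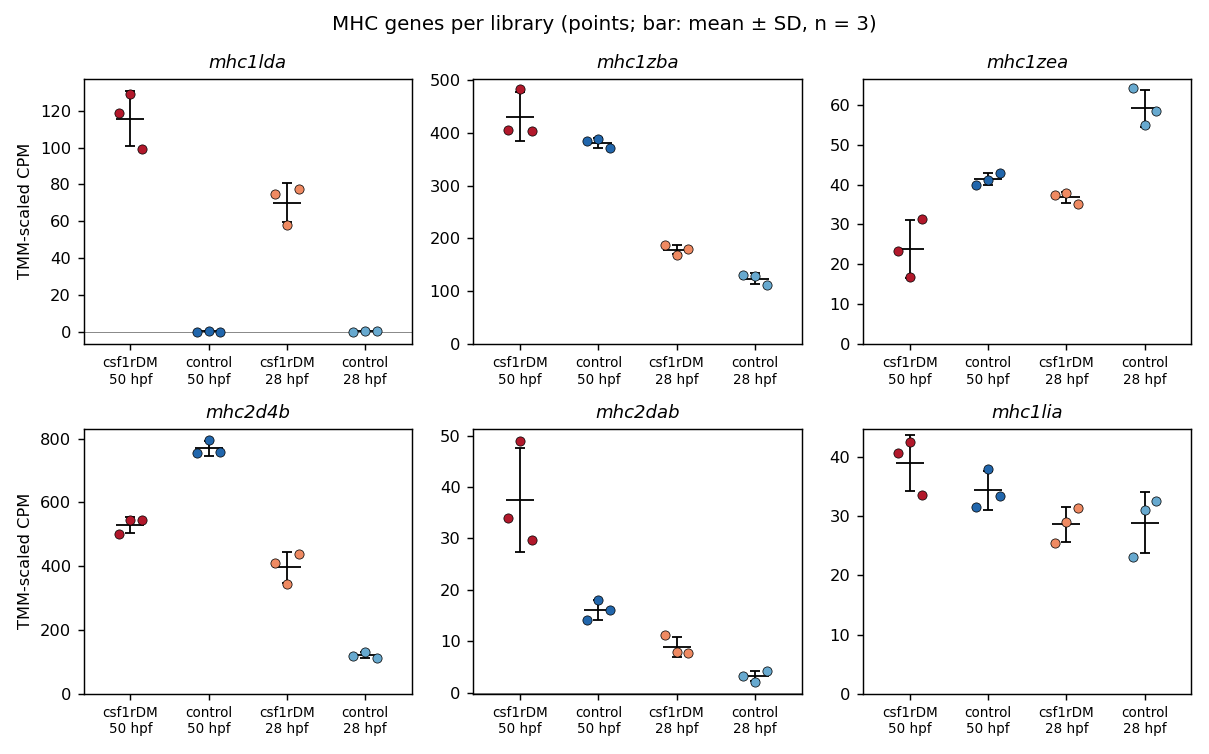
Level of 6 MHC genes in each library, in TMM-scaled CPM on linear axes that differ between panels. Points are libraries, bars the mean and SD of 3 pools; the csf1rDM points of mhc1lda lie between 58.1 and 129 CPM and all control points at or below 0.248 CPM, while mhc2d4b has the csf1rDM points below the control points at 50 hpf and above them at 28 hpf.

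Genotypes overlapped at both stages for mhc1lia and mhc1zja, and at 50 hpf for mhc1laa. The L lineage gene mhc1lia averaged 39.0 ± 4.75 CPM in csf1rDM and 34.4 ± 3.34 CPM in control cells at 50 hpf, and 28.6 ± 2.99 CPM in csf1rDM and 28.9 ± 5.15 CPM in control cells at 28 hpf (SD, n = 3 each). Its log2 stage difference was 0.44 in csf1rDM (edgeR adjusted p = 0.0474) and 0.25 in control cells (edgeR adjusted p = 0.273). The L lineage gene mhc1laa averaged 12.98 ± 3.66 CPM in csf1rDM and 9.81 ± 1.32 CPM in control cells at 50 hpf, and 9.82 ± 1.21 CPM in csf1rDM and 7.96 ± 0.676 CPM in control cells at 28 hpf. Neither its stage differences nor those of mhc1zja, which averaged 6.18 to 6.83 CPM in the 4 groups, passed the thresholds.

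The H lineage gene mhc1haa varied widely between pools. At 50 hpf it had 3.44, 8.52 and 4.74 CPM in csf1rDM and 0.750, 1.82 and 1.98 CPM in control cells. In the 28 hpf libraries it had 3.04, 1.01 and 0.428 CPM in csf1rDM and 0.871, 0.553 and 0.807 CPM in control cells. The genotypes did not overlap at 50 hpf and did at 28 hpf. The log2 stage difference in csf1rDM cells of 1.94 ± 0.66 (SE, edgeR adjusted p = 0.0454) missed the thresholds. With a replicate left out it ran from 1.47, without csf1rDM 28 hpf replicate 3, to 2.91 (edgeR adjusted p = 0.0074), without csf1rDM 28 hpf replicate 1. It passed in 1 of 6 such fits. The genes mhc1lca, mhc1zda and mhc1zca had group means of at most 2.80 CPM. At 50 hpf mhc1zda averaged 2.48 CPM in csf1rDM and 1.78 CPM in control cells. For mhc1zca these means were 1.34 CPM in csf1rDM and 0.671 CPM in control cells. The csf1rDM libraries of mhc1zda and mhc1zca lay above the controls at 50 hpf without overlap, and the genotypes overlapped at 28 hpf. For mhc1lca the group means were 2.80 CPM in csf1rDM and 2.68 CPM in control cells at 50 hpf, and 0.440 CPM in csf1rDM and 0.472 CPM in control cells at 28 hpf.

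Beta-2 microglobulin rose with stage in both genotypes. At 50 hpf b2m had 8.28, 10.4 and 8.22 CPM in csf1rDM and 6.31, 5.69 and 6.33 CPM in control cells. At 28 hpf it had 3.28, 2.03 and 2.07 CPM in csf1rDM and 1.27, 2.62 and 1.799 CPM in control cells. The rise was 1.88 ± 0.32 on the log2 scale in csf1rDM (SE, edgeR adjusted p = 0.000697) and 1.68 ± 0.31 in control cells (edgeR adjusted p = 0.00179). In control cells the call was lost without 28 hpf replicate 1 (edgeR adjusted p = 0.0112) and without 28 hpf replicate 3 (edgeR adjusted p = 0.0119). The genotypes did not overlap at 50 hpf, with a log2 difference of 0.55, and did at 28 hpf, with one of 0.35.

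Among class II genes, mhc2d4b (ENSDARG00000101030), whose symbol marks a beta chain, held most of the class II counts. At 50 hpf it had 500, 544 and 543 CPM in csf1rDM and 755, 796 and 756 CPM in control cells. Values at 28 hpf were 410, 343 and 438 CPM in csf1rDM and 119, 131 and 111 CPM in control cells. The csf1rDM libraries thus lay below the controls at 50 hpf and above them at 28 hpf, with no overlap at either stage. The log2 genotype difference was -0.54 ± 0.09 at 50 hpf and 1.72 ± 0.09 at 28 hpf, and the difference between the stages was -2.26 ± 0.13 (SE). The stage difference was 0.42 in csf1rDM and 2.68 in control cells on the log2 scale.

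The classical class II pair mhc2daa and mhc2dab, an alpha and a beta chain gene, did not run in parallel between genotypes. At 50 hpf the beta chain gene mhc2dab had 33.9, 49.0 and 29.6 CPM in csf1rDM and 14.1, 17.9 and 16.1 CPM in control cells. The 28 hpf levels were 11.2, 7.83 and 7.63 CPM in csf1rDM and 3.25, 2.14 and 4.16 CPM in control cells. All csf1rDM libraries lay above the controls of their stage, with log2 fold changes of 1.22 ± 0.24 at 50 hpf and 1.46 ± 0.27 at 28 hpf (SE). It rose with stage by 2.09 ± 0.25 in csf1rDM (edgeR adjusted p = 5.46e-05) and by 2.33 ± 0.27 in control cells (edgeR adjusted p = 4.42e-05).

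The alpha chain gene mhc2daa had 2, 9 and 0 counts in csf1rDM and 32, 41 and 38 counts in control libraries at 50 hpf. In the 28 hpf libraries it had 1, 0 and 0 counts in csf1rDM and 0, 3 and 1 counts in control libraries. It was thus lower in csf1rDM at 50 hpf, without overlap, where mhc2dab was higher. The ratio of 50 to 28 hpf was 10.9 (95% exact interval 1.59 to 471) in csf1rDM and 22.8 (8.67 to 85.3) in control cells. The other 10 class II genes had at most 17 counts over all libraries.

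The invariant chain genes differed from each other. At 50 hpf cd74a (ENSDARG00000009087) had 1, 0 and 1 counts in csf1rDM and 60, 81 and 76 counts in control libraries, which is 0.0541 ± 0.0474 CPM in csf1rDM and 4.16 ± 0.609 CPM in control cells (SD, n = 3 each). At 28 hpf it had 0 counts in all csf1rDM libraries, which allows up to 0.0809 CPM over the group, and 0, 2 and 1 counts in control libraries. The ratio of csf1rDM to control at 50 hpf was 0.0130 (95% exact interval 0.00156 to 0.0475). This interval covers counting error only and is no test, and cd74a passed the filter through control libraries alone. In control cells the ratio of 50 to 28 hpf was 59.5 (20.1 to 291).

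The paralogue cd74b (ENSDARG00000036628) overlapped between the genotypes at 50 hpf, with 30, 11 and 12 counts in csf1rDM and 20, 24 and 35 counts in control libraries. At 28 hpf each csf1rDM library had 1 count and each control library 0. The ratio of 50 to 28 hpf was 17.6 in csf1rDM cells (95% exact interval 5.69 to 87.9). In control cells the 50 hpf level, its sum taken as exact, was 21.7-fold above the floor of 3 counts over the 28 hpf group. Beside these class II and invariant chain results stand B cell markers at low counts. cd79a had 19 counts in csf1rDM and 12 in control cells at 50 hpf, and 3 in each at 28 hpf. PAX5 had 11 in csf1rDM and 4 in control cells at 50 hpf, and 10 in csf1rDM and 6 in control cells at 28 hpf. cd79b had 0 in both at 50 hpf, and 4 in csf1rDM and 1 in control cells at 28 hpf. The T cell marker cd8a had 30 counts in csf1rDM and 4 in control cells at 50 hpf, and 0 in both at 28 hpf. Most of its csf1rDM counts came from 1 pool. cd4-1 had 68 in csf1rDM and 62 in control cells at 50 hpf, and 0 in csf1rDM and 14 in control cells at 28 hpf. Most of the csf1rDM counts of cd4-1 at 50 hpf came from 1 pool. In adult skin the paper lists cd4-1 in the signature of metaphocytes, which are macrophage-like cells of non-hematopoietic origin. ZAP70 had 4 in csf1rDM and 13 in control cells at 50 hpf, and 0 in csf1rDM and 4 in control cells at 28 hpf. lck had 17 in csf1rDM and 19 in control cells at 50 hpf, and 41 in csf1rDM and 20 in control cells at 28 hpf. RAG2 had 37 in csf1rDM and 13 in control cells at 50 hpf, and 2 in csf1rDM and 32 in control cells at 28 hpf. Most of the csf1rDM counts of RAG2 at 50 hpf also came from 1 pool. RAG1 had 5 in csf1rDM cells at 50 hpf and 0 in every other group. Their part in these results was not tested.

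**Figure D2:**
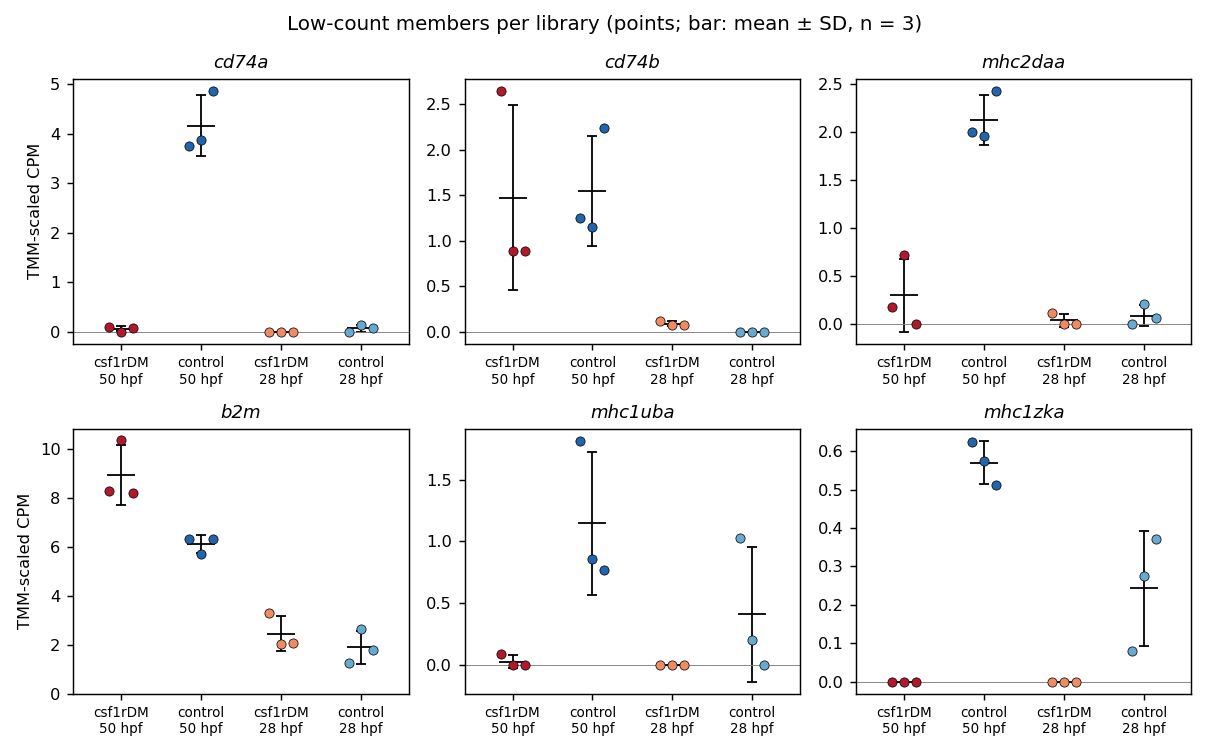
Level of 6 low-count genes in each library, in TMM-scaled CPM on linear axes that differ between panels, with points for libraries and bars for the mean and SD of 3 pools. The control points of cd74a and mhc2daa at 50 hpf stand above all other points, cd74b overlaps between the genotypes at 50 hpf, and mhc1zka is at 0 in every csf1rDM library.

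The 4 immunoproteasome genes of the rule were barely detected. PSMB9 had 24 counts over all 12 libraries, psmb13a 19, psmb12 17 and PSMB8 15, and none passed the filter. At 28 hpf all 4 had 0 counts in csf1rDM cells, and control cells held 3 counts of PSMB9 and 1 of psmb12. At 50 hpf PSMB9 had 12, 0 and 0 counts in csf1rDM and 2, 5 and 2 counts in control libraries, so that 1 pool held all csf1rDM reads. The scaled ratio of csf1rDM to control at 50 hpf was 1.88 (95% exact interval 0.727 to 5.05) for PSMB9, 1.57 (0.572 to 4.35) for psmb13a and 2.35 (0.773 to 7.86) for psmb12. A genotype difference of these genes was not detectable at this depth. In csf1rDM cells the 50 hpf sums, taken as exact, were 3.98-fold above the floor of 28 hpf for PSMB9 and 3.31-fold for psmb12 and psmb13a. PSMB10, another immunoproteasome catalytic subunit gene, which the rule does not include and which was named after its values were seen, had 9.96, 13.03 and 7.70 CPM in csf1rDM and 5.94, 6.55 and 6.08 CPM in control cells at 50 hpf. Its 28 hpf values were 5.71, 6.08 and 6.70 CPM in csf1rDM and 4.12, 4.56 and 3.85 CPM in control cells. The csf1rDM libraries lay above the controls at both stages without overlap. The log2 differences, a description, were 0.72 ± 0.23 at 50 hpf and 0.56 ± 0.23 at 28 hpf (SE), under the fold threshold.

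In peptide loading, the tapasin gene tapbp.1 (ENSDARG00000079402) had 13.8, 15.8 and 9.56 CPM in csf1rDM and 26.1, 33.8 and 33.8 CPM in control cells at 50 hpf. The 28 hpf levels were 13.1, 9.72 and 14.6 CPM in csf1rDM and 13.7, 10.5 and 11.4 CPM in control cells. At 50 hpf all csf1rDM libraries were below the controls, with a log2 fold change of -1.26, and at 28 hpf the genotypes overlapped, with one of 0.07. It rose with stage in control cells by 1.40 ± 0.21 (SE, edgeR adjusted p = 0.000407). In csf1rDM cells its stage difference was 0.07 ± 0.22 (SE, edgeR adjusted p = 0.847), and the difference of the stage effects was -1.33 on the log2 scale, which is a description.

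The transporter gene TAP1 had 5.90, 2.73 and 6.08 CPM in csf1rDM and 5.75, 4.50 and 6.46 CPM in control cells at 50 hpf. In the 28 hpf libraries it had 1.58, 3.11 and 0 CPM in csf1rDM and 3.33, 1.73 and 0.682 CPM in control cells. Its log2 stage differences were 1.64 in csf1rDM (edgeR adjusted p = 0.193) and 1.55 in control cells (edgeR adjusted p = 0.227), and neither passed the thresholds. Its partner tap2a had 5 counts in all. Another TAP2 gene by its symbol, tap2t, is outside the rule and was named after its values were seen. It averaged 35.4 CPM in csf1rDM and 29.0 CPM in control cells at 50 hpf, and 17.4 CPM in csf1rDM and 12.7 CPM in control cells at 28 hpf.

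**Figure D3:**
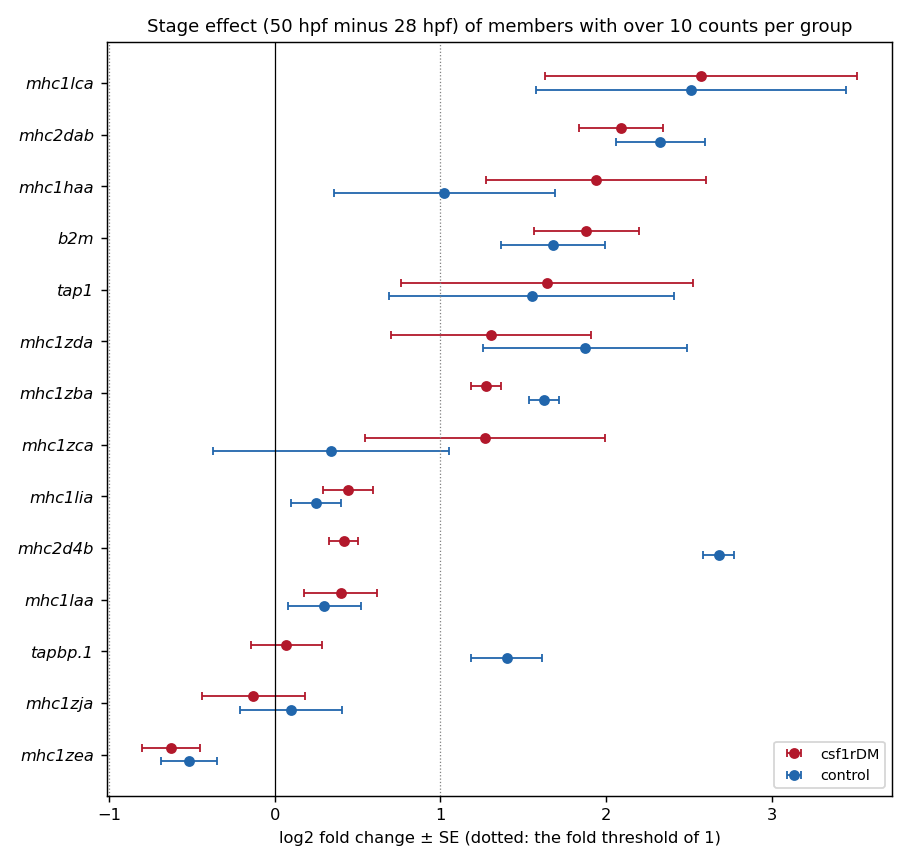
Log2 fold change of 50 over 28 hpf with its SE, for the 14 members with over 10 counts in each group, in csf1rDM (red) and control (blue) cells; dotted lines mark the fold threshold. Of these genes mhc1zea lies below 0 in both genotypes, and the genotypes part most at mhc2d4b (0.42 in csf1rDM and 2.68 in control cells) and tapbp.1 (0.07 in csf1rDM and 1.40 in control cells).

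For genotype, 2 of the 19 tested members passed upward at 50 hpf (mhc1lda and mhc2dab) and 2 downward (cd74a and tapbp.1), where 5.33% of all tested genes passed, 2.29% upward and 3.04% downward. At 28 hpf 3 passed upward (mhc1lda, mhc2dab and mhc2d4b) and 0 downward, against 4.08% of all tested genes, 1.84% upward and 2.23% downward. For the change of the genotype effect with stage, 1 member passed, mhc2d4b, downward, against 0.158% of all tested genes, 0.0913% upward and 0.067% downward. At an unadjusted p under 0.05, 9 members stood at 50 hpf and 7 at 28 hpf in edgeR, against 32.1 and 33.5% of all tested genes, and 5 for the change with stage, against 12.9%. Nothing is read from these counts, since the genes were chosen with these contrasts known. The median log2 genotype difference of the 19 genes was 0.06 at 50 hpf and 0.10 at 28 hpf, against -0.02 and 0.02 over all tested genes. Groups did not overlap for 13 of 19 members at 50 hpf and 7 at 28 hpf, against 35.9 and 41% of all tested genes.

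**Figure D4:**
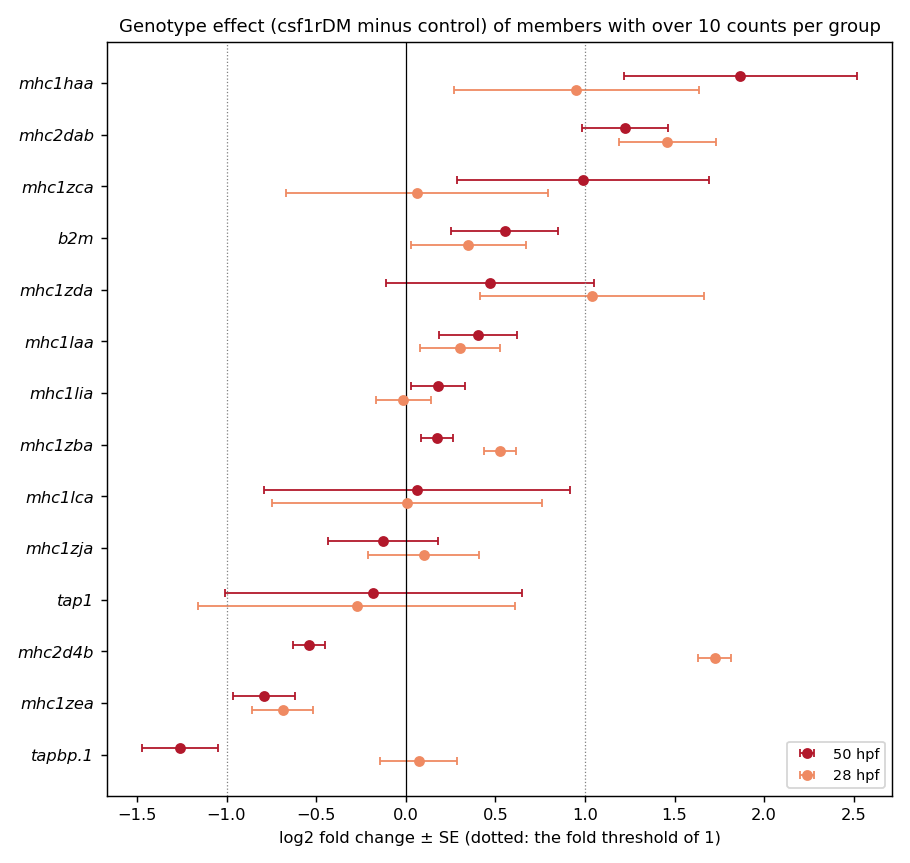
Log2 fold change of csf1rDM over control with its SE, for the 14 members with over 10 counts in each group, at 50 hpf (dark red) and 28 hpf (orange); dotted lines mark the fold threshold. The stages lie on opposite sides of 0 and far apart for mhc2d4b (-0.54 at 50 hpf and 1.72 at 28 hpf), whereas mhc2dab (1.22 at 50 hpf and 1.46 at 28 hpf) and mhc1zea (-0.79 at 50 hpf and -0.69 at 28 hpf) lie close together.

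Other genes of the pathway were taken from 5 lists, of which 43 IDs were matched and 39 tested. With stage, 6 passed upward and 4 downward in csf1rDM cells, and 5 upward and 5 downward in control cells, against 8.24 and 6.29% of all tested genes. PSME1 and erap2, counted upward in both genotypes, had no 28 hpf library at the filter's level. In the genotype comparisons 1 gene passed at 50 hpf and 1 at 28 hpf, against 5.33 and 4.08%. The other immunoproteasome and activator genes gave 2 upward and 0 downward of 5 tested in each genotype, and the peptide loading and trimming genes, of 10 tested, 1 upward and 4 downward in csf1rDM and 1 upward and 5 downward in control cells. Of 9 class II processing genes, 2 passed upward in csf1rDM and 1 in control cells, and of 12 regulators 1 in each. The 3 constitutive catalytic proteasome subunits passed in no comparison. Their log2 stage differences lay under the fold threshold, with -0.43 for PSMB5, -0.56 for PSMB6 and -0.68 for PSMB7 in csf1rDM, and -0.38 for PSMB5, -0.50 for PSMB6 and -0.56 for PSMB7 in control cells.

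PSME1 and PSME2 encode the interferon-inducible proteasome activator. PSME1 had 2.996, 4.34 and 3.85 CPM in csf1rDM and 5.94, 6.22 and 6.46 CPM in control cells at 50 hpf. At 28 hpf its highest library was 0.486 CPM in csf1rDM and 0.396 CPM in control cells. Its log2 stage difference, a description, was 3.25 ± 0.41 in csf1rDM and 4.54 ± 0.43 in control cells (SE). PSME2 rose with stage by 1.54 in csf1rDM (edgeR adjusted p = 5.26e-05) and by 2.18 in control cells (edgeR adjusted p = 3.62e-06). The trimming peptidase gene erap2 had 91 counts in csf1rDM cells at 50 hpf and 0 at 28 hpf. The 50 hpf level, its sum taken as exact, was 30.2-fold above the floor of 3 counts. In control cells it had 119 counts at 50 hpf and 2 at 28 hpf, a ratio of 49.0 (95% exact interval 13.3 to 409).

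CALR, which encodes the endoplasmic reticulum chaperone calreticulin, had 216, 214 and 224 CPM in csf1rDM and 199, 254 and 193 CPM in control cells at 50 hpf. At 28 hpf it had 709, 701 and 667 CPM in csf1rDM and 565, 607 and 643 CPM in control cells. It fell by 1.67 on the log2 scale in csf1rDM (edgeR adjusted p = 1.42e-07) and by 1.49 in control cells (edgeR adjusted p = 3.51e-07). Its paralogues calr3a and calr3b and the disulfide isomerase gene PDIA3 also passed downward in both genotypes, although the PDIA3 fold change in csf1rDM cells, -1.01, was at the fold threshold, its call kept in 3 of 6 fits with a replicate left out (-1.08 to -0.96). CANX, which encodes the chaperone calnexin and was named after its values were seen, was under the fold threshold. Its log2 stage differences, a description, were -0.86 in csf1rDM and -0.69 in control cells. In control cells the transporter gene ABCB9 also passed downward at -3.24, a call kept in 3 of 6 fits with a replicate left out.

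**Figure D5:**
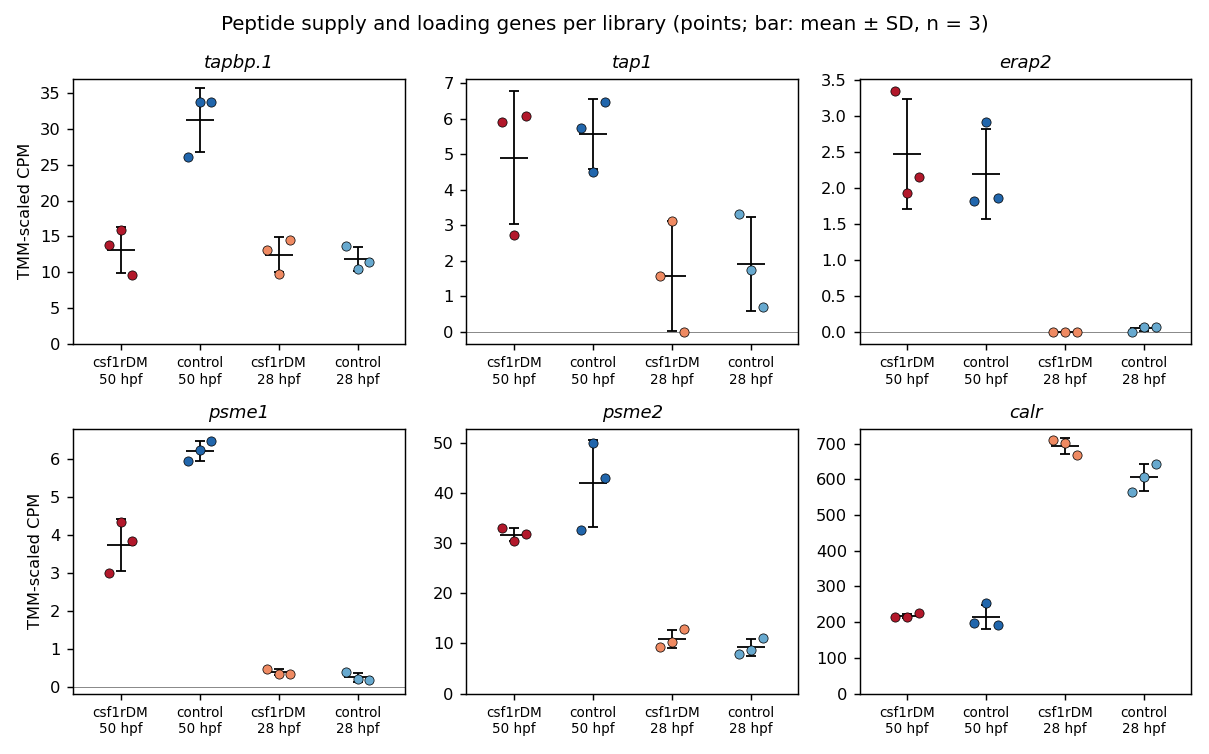
Level of 6 genes of peptide supply and loading in each library, in TMM-scaled CPM on linear axes that differ between panels, with points for libraries and bars for the mean and SD of 3 pools. The tapbp.1 points stand apart in control cells at 50 hpf; erap2, psme1 and psme2 are higher and calr is lower at 50 than at 28 hpf in both genotypes.

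Among class II processing genes, the cathepsin gene ctsl.1 had 1138, 1046 and 1062 CPM in csf1rDM and 730, 869 and 652 CPM in control cells at 50 hpf. Values at 28 hpf were 34.7, 39.0 and 49.9 CPM in csf1rDM and 54.2, 79.5 and 44.9 CPM in control cells. It rose by 4.71 on the log2 scale in csf1rDM (edgeR adjusted p = 2.06e-08) and by 3.66 in control cells (edgeR adjusted p = 1.02e-07). The related gene ctsla passed upward in csf1rDM cells at 1.15. Among genes that regulate MHC transcription, the class II transactivator gene ciita averaged 0.579 to 1.35 CPM in the 4 groups. The interferon-γ receptor gene ifngr1 was the gene past the genotype thresholds at 50 hpf, with 59.0, 54.7 and 56.1 CPM in csf1rDM and 11.9, 12.01 and 17.1 CPM in control cells. Its log2 genotype difference of 2.05 is a description, as for the members. With stage ifngr1 passed upward in csf1rDM cells (1.74, edgeR adjusted p = 5.37e-05), and the related receptor gene ifngr1l in control cells (1.13, edgeR adjusted p = 0.00207), a call kept in 3 of 6 fits with a replicate left out. At 28 hpf ctss2.2, a cathepsin S gene named after its value was seen, was past the thresholds at a log2 genotype difference of 1.73. This is a description, and the gene stayed past them in 1 of 6 fits with a replicate left out. Over those 6 fits its log2 difference lay between 1.43 and 1.92.

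The genes whose profile over the 12 libraries lay closest to that of mhc1lda, by the root mean square difference of centred log2 CPM among 9092 candidates, were si:ch211-42i6.2 at 1.47, LGALS8 at 1.73 and pttg1ipb at 2.35. The range of mhc1lda itself was 9.84. For mhc2d4b, with a range of 2.84, they were HBP1 at 0.34, a clone-named gene (ENSDARG00000102572) at 0.36 and NR1D2 at 0.38. HBP1 averaged 55.9 CPM in csf1rDM and 49.4 CPM in control cells at 50 hpf, and 24.8 CPM in csf1rDM and 11.1 CPM in control cells at 28 hpf. It thus lacked the order of mhc2d4b at 50 hpf.

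Genes beside the members were counted in the RefSeq gene table of another assembly, which holds 36 of the 44 genes. Of 122 tested genes among the 10 on each side of a member, other members left out, 12 passed the genotype thresholds at 50 hpf (9.84%, against 5.33% of all tested genes) and 5 at 28 hpf (4.1%, against 4.08%). These counts pool the neighbours of all members. At 50 hpf arhgef39, arhgef4, PIF1, si:dkey-225f5.4, kifc1, UHRF1, POLD2, MAFA, cenpn and GINS2 were lower in csf1rDM cells, and tfa and b4galnt2.1 higher. The paper reports lower DNA replication genes in csf1rDM macrophages. The cause of the neighbour differences was not tested. None of the 3 tested neighbours of mhc1lda and none of the 8 of mhc2d4b passed at either stage. The 5 tested neighbours of cd74a did not pass either, and they include csf1ra, 1 of the genes mutated in csf1rDM fish. The part of this position beside a mutated gene in the cd74a difference was not tested. In adult skin the paper reports cd74a expression in all its mpeg1+ populations, csf1rDM cells included. Those csf1rDM skin cells were ones that the paper identifies as metaphocytes and not as macrophages. For flow cytometry and lineage tracing its methods join the same csf1ra allele to another csf1rb allele than that of the embryos here. In that table PSMB8, PSMB9, psmb12, psmb13a, tapbp.1, mhc1uba and tap2a each have 4 or 5 other members among the 10 genes on either side. The same holds for L lineage and some class II genes. There mhc1lda, mhc1lia, mhc1lga, mhc1lfa, mhc1lja and mhc1lla each have 5, and mhc1laa, mhc1lba, mhc2d8.46a, mhc2d8.45b1 and mhc2dcb each have 4.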

How the data were processed

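Whole-number counts per Ensembl gene for the 12 libraries were used as deposited by the authors, with no normalisation and 0 columns left unused. The methods state that reads were mapped with STAR to GRCz10. The submitters' processing notes also name CASAVA 1.8, cutadapt, STAR 2.5.4b, Cufflinks 2.2.1, HTSeq 0.11.0 and edgeR, with no roles. The counting settings are not given in the sources used here. Amplified cDNA carried no molecular identifiers, so intervals cover counting error only.

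Counts were analysed in R 4.3.3 with edgeR 4.0.16: filterByExpr by group, TMM scaling, 1 quasi-likelihood fit over all libraries with a mean per group, and Benjamini-Hochberg adjustment over 16429 genes. Thresholds were an adjusted p under 0.01 and a log2 fold change above 1 in size. The fit was tested on simulated data. For groups of 10 or fewer counts, exact 95% intervals of the ratio of summed counts replaced fitted values. At 0 counts a ratio to a floor of 3 counts over the group was given, a bound and not an estimate, with the other sum taken as exact. Symbols came from an Ensembl name table, compared without case. All members could be named. Pathway genes were to be named where they passed in a stage comparison. PSMB5, PSMB6, PSMB7, PSMB10, CANX, tap2t, ciita and ctss2.2 were named outside that rule. The nearest profiles were taken from genes of at least 10 CPM in a group, with a prior count of 2. The members and lists were chosen with earlier results of these data known. Alternatives covered scaling, filter, test (DESeq2 1.42.0), thresholds, libraries in the fit, a replicate block and each replicate left out.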

Additional observations from a re-analysis of the deposited data

Results flagged for a closer look

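The genotype effect on mhc2d4b changed sign between the stages: the log2 difference of csf1rDM over control was -0.54 at 50 hpf and 1.72 at 28 hpf, so that the effects differed by -2.26. The 2 genotypes did not overlap at either stage, csf1rDM being the lower one at 50 hpf and the higher one at 28 hpf. The gene was taken up for this contrast, and the value is a description.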

How the results depend on the processing

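The counts over all 19 members, mhc2d4b and those that passed the filter at 50 hpf alone included, were 4 for stage in csf1rDM and 7 in control cells, against 8.24 and 6.29% of all tested genes. With each replicate left out the counts ran over 3 to 4 genes for the stage effect in csf1rDM, 5 to 7 for that in control cells, 2 to 5 for the genotype effect at 50 hpf, 2 to 3 for that at 28 hpf and 1 to 1 for the change of genotype effect with stage. Such fits tested 16853 to 17580 genes. For stage 1204 to 1401 of them passed in csf1rDM and 781 to 870 in control cells. For genotype 615 to 797 passed at 50 hpf and 436 to 709 at 28 hpf, and 5 to 29 for the change with stage. At 50 hpf the count was 2 without control replicate 3 and 5 without csf1rDM replicate 3. With an adjusted p under 0.05 and no fold limit, 9 members passed for stage in csf1rDM and 5 for genotype at 28 hpf, against 27.6 and 20.5% of all tested genes, and 25 pathway genes passed for stage in csf1rDM and 23 in control cells, against 27.6 and 23.4%. By DESeq2's Wald test 2 members, tapbp.1 beside mhc2d4b, were past the thresholds for the change of genotype effect with stage. This is a description, and 136 of 16429 tested genes were past them. In control cells, a fit of only the 6 libraries compared called 10 members for stage, where 1644 of 14759 tested genes passed. The members added were mhc1lca, mhc1zda and mhc2daa, whose stage values are a description. In csf1rDM cells such a fit called b2m, mhc1zba and mhc2dab, where 889 of 14555 tested genes passed. The stage effect of tapbp.1 in csf1rDM ran from -0.10 to 0.24 with a replicate left out and changed sign. That of cd74b in csf1rDM, a description, stayed past the thresholds in 1 of 6 such fits. The log2 stage effect of PDIA3 in csf1rDM was -0.98 with DESeq2 size factors, under the fold threshold. The genotype value of ctss2.2, a description, stayed past the thresholds in 1 of 6 fits with a replicate left out. The calls of ABCB9 and ifngr1l were kept in 3 of 6 such fits each. The genotype difference of mhc2dab, a description, stayed past the thresholds in 2 of 6 such fits at 50 hpf and 3 of 6 at 28 hpf. The cause was not tested.

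Replicate numbers shared no origin in the labels, and same-numbered libraries did not deviate together (18 correlations from -0.36 to 0.17, median 0.03). With a replicate block, 3 members passed for stage in csf1rDM, cd74b being lost, and 7 in control cells. The 7 hold mhc2d4b, cd74a and cd74b, whose stage values are a description. For genotype 4 passed at 50 hpf and 3 at 28 hpf, and 1 for the change with stage. Of 16429 tested genes, 1232 passed for stage in csf1rDM and 955 in control cells. For genotype 783 passed at 50 hpf and 581 at 28 hpf, and 16 for the change with stage. At 0 counts over a group, levels up to 0.0571 to 0.0809 CPM are allowed, which limits the immunoproteasome and most class II genes.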
